A study of Mus musculus with 6 samples.

Results

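The iron handling and ferroptosis defence genes described here, 10 genes that move, store or export iron, or that protect membrane lipids from iron-driven oxidation, were followed in oligodendrocyte-lineage cells with and without Npc1. The genes were chosen by name from the deposited gene table: Tf (listed there as Trf), Tfrc, Fth1, Ftl1, Slc40a1, Slc11a2, Hmox1, Gpx4, Slc7a11 and Ncoa4. All 10 were found among the 55492 genes of the table, 9 by their own symbol and Trf through its RefSeq synonym. Bulk RNA-seq had been run on 6 samples from mice at 16 days of age (P16), 3 wild type (WT) and 3 Npc1-/-, each giving 1 library. The Npc1-/- mice were homozygous for the Npc1nih null allele, which removes the NPC1 cholesterol transporter from every cell of the body, and the animals were untreated. By the paper's methods both genotypes were F1 littermates of a BALB/cJ by C57BL6/J cross of heterozygous parents. The methods do not say which samples shared a litter. Cells carrying the O4 antigen, a surface lipid of late progenitors and immature oligodendrocytes, were pulled from dissociated whole brain with magnetic microbeads. The sample titles call them O4+ cells.

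Iron circulates bound to transferrin (Trf), which the transferrin receptor (Tfrc) carries into endosomes. The transporter DMT1 (Slc11a2) then passes the iron into the cytosol, where ferritin, a shell of heavy (Fth1) and light (Ftl1) chains, stores it. NCOA4 delivers ferritin to lysosomes for breakdown, ferroportin (Slc40a1) exports iron, and heme oxygenase (Hmox1) frees it from heme. Oligodendrocytes are the most iron-rich cells of the brain, make transferrin themselves, and need iron for the enzymes that build myelin lipids. Free iron also drives lipid peroxidation and the form of cell death called ferroptosis, which GPX4 opposes by reducing lipid peroxides with glutathione. The cystine importer xCT (Slc7a11) supplies the cysteine for that glutathione.

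Ferritin, ferroportin and the transferrin receptor share a textbook control element, the iron-responsive element (IRE), a hairpin in the messenger RNA that iron regulatory proteins bind when iron is scarce. Near the 5′ end the hairpin governs translation of the message, and in the 3′ UTR it protects the message from decay. The hairpins are shown as a sequence feature shared by members with fold changes in both directions. None of these members passed the test described below, and translation was not measured. A search of the UTRs for an unpaired C, a stem of 5 base pairs and the loop CAGTGN, with at least 3 of 5 further pairs below, found 7 such hairpins in 4 of the 10 genes. In the sequences, which run 5′ to 3′ on the sense strand of GRCm38, capitals mark the unpaired C and the loop.
Fth1, 5′ UTR in exon 1, chr19:9982733-9982759, plus strand: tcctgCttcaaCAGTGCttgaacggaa
Ftl1, 5′ UTR in exon 1, chr7:45459780-45459806, minus strand: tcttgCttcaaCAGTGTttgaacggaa
Slc40a1, 5′ UTR in exon 1, chr1:45925466-45925492, minus strand: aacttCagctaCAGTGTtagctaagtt
Tfrc, 3′ UTR in exon 19, chr16:32631220-32631246, plus strand: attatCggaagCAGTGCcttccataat
Tfrc, 3′ UTR in exon 19, chr16:32631599-32631625, plus strand: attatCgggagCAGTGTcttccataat
Tfrc, 3′ UTR in exon 19, chr16:32631664-32631690, plus strand: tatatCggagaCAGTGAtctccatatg
Tfrc, 3′ UTR in exon 19, chr16:32631711-32631737, plus strand: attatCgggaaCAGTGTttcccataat

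The same pattern was found in the 5′ UTR of 8 of 13433 genes tested that have one (0.0596%) and in the 3′ UTR of 31 of 13466 (0.230%). The loop letters alone are common and occurred in 12.8% of 5′ UTRs and 42.6% of 3′ UTRs. Slc11a2 had no match under these rules, which says only that these letters and pairs are absent from the annotated UTRs searched.

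Library depth, estimated from the spacing of low FPKM values, was between 40250000 and 50250000 fragments. Markers of oligodendrocyte progenitors, immature and mature oligodendrocytes (17 genes) were above 0 in every sample, and so were those of 7 other cell types, so RNA of other cell types was present. Npc1 itself fell from 45.5 to 53.3 TPM in WT to 3.16 to 4.42 TPM in Npc1-/- mice (log2 fold change −3.17, adjusted p = 0.000398 by limma). Values below are TPM (transcript abundance, allowing for transcript length and library size) divided by a size factor per sample, here called scaled TPM. Testing was by limma on genes averaging 0.5 TPM or more, and a gene was called when its adjusted p was below 0.05 and its log2 fold change at least 0.1 in size. Of 15245 genes tested 124 (0.813%) were called, 61 higher and 63 lower. Npc1-/- replicate 3 was the only library with Xist RNA (15.6 TPM, against at most 0.01 in the others) and without Ddx3y, so results are also given without it. The paper calls the replicates biological, but the sources used here do not say whether each came from its own mouse.

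All 10 genes were measured above the filter, and none was called (0 of 10, against 0.813% of all genes tested). At an unadjusted p below 0.05 by limma, 4 of 10 passed, Trf and Ftl1 higher and Tfrc and Slc7a11 lower in Npc1-/- cells, where 22.2% of all genes did so. In 4 of 10 the samples of the genotypes did not overlap, against 27.5% of all genes. Trf and Ftl1 lay higher in every Npc1-/- sample (13.3% of all genes did) and Slc40a1 and Slc7a11 lower (14.2%). The median log2 fold change of the 10 was 0.13, beside 0.01 for all genes tested, with 5 above 0 and 5 below. With 10 genes these shares give no result about the group, and each gene is described in turn.

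**Figure D1:**
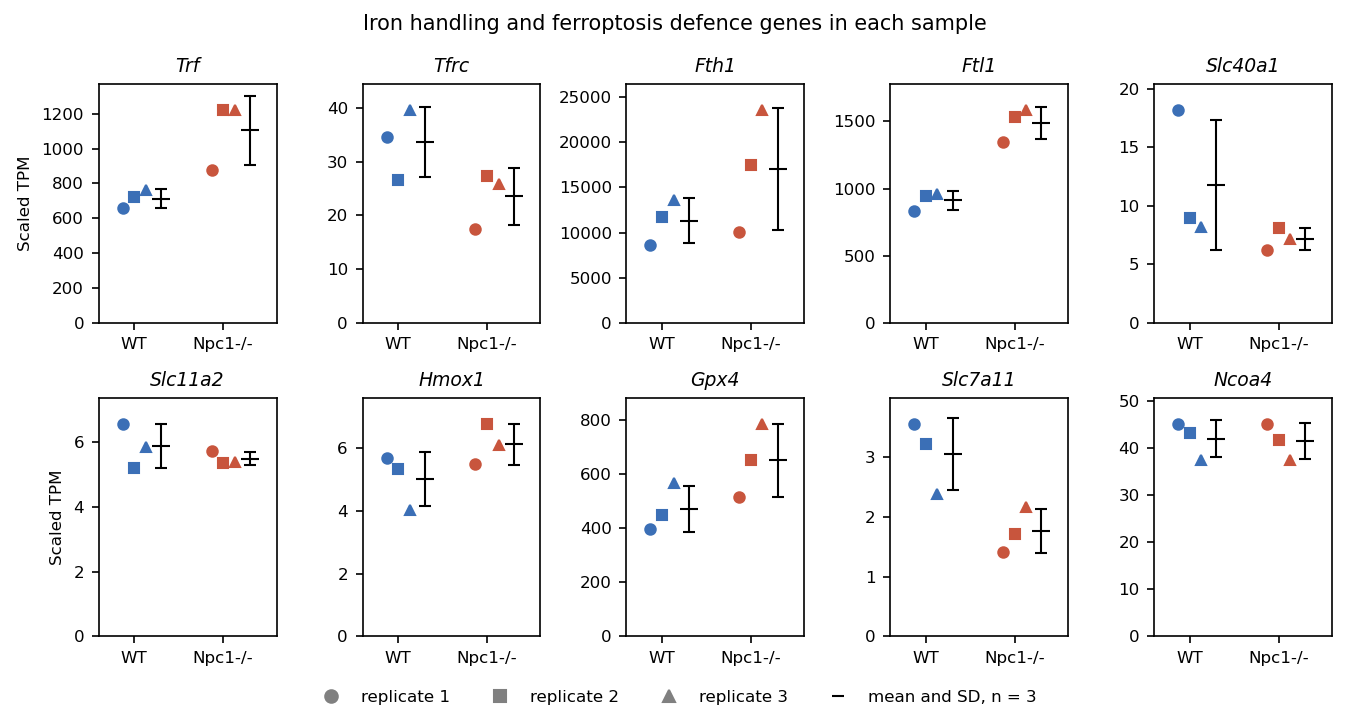
Scaled TPM (TPM divided by a size factor per sample, linear axes from 0) of the 10 genes in the 3 WT and 3 Npc1-/- samples, with one symbol per replicate number and the mean with SD (n = 3) beside each genotype. Trf and Ftl1 lay higher in every Npc1-/- sample and Slc40a1 and Slc7a11 lower, while the other 6 genes overlapped between genotypes and WT replicate 1 stood far above the rest for Slc40a1.

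The levels spanned a range of more than 3 orders of magnitude in scaled TPM. Fth1 was the most abundant, between rank 6 and rank 13 of all genes in every sample, and Ftl1, Trf and Gpx4 followed in that order in both genotypes with no overlap between neighbours. Ncoa4 and Tfrc came next and overlapped in WT but not in Npc1-/- samples. Slc40a1 lay below them, apart from Slc11a2 in WT but overlapping Hmox1 in Npc1-/- samples. Slc11a2 and Hmox1 could not be placed in order in either genotype, and Slc7a11 was lowest in both.

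Among the genes of uptake, transferrin had a higher mean in Npc1-/- samples and its receptor a lower one, and neither was called. Trf (chr9:103204001-103230444, minus strand) stood at 657, 721 and 761 scaled TPM in WT replicates 1 to 3 and at 875, 1221 and 1219 in Npc1-/- replicates 1 to 3. In scaled TPM the Npc1-/- values were all above the WT values, with replicate 1 lowest in both genotypes. The order within a genotype differed in TPM as deposited, at 852, 798 and 791 in WT and 964, 1044 and 886 in Npc1-/- samples. The means were 713 ± 52.4 and 1105 ± 199 (SD, n = 3 each), a 1.55-fold difference, and the log2 fold change was 0.62 (SE 0.17, 95% interval 0.23 to 1.01). Its adjusted p was 0.092 by limma, so it was not called, and the exact two-sided permutation p was 0.1, the smallest that 3 against 3 samples can give. The difference depended on the scaling. The log2 fold change was 0.25 after quantile normalization and 0.24 in TPM as deposited (0.57 relative to the median of all genes there). Without Npc1-/- replicate 3 it was 0.53 (adjusted p = 0.163 by limma), within an adjusted p range of 0.0204 to 0.296 over all alternatives.

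Trf is made by mature oligodendrocytes and by the choroid plexus, so the markers of both are given beside it, with those of neurons. All 7 markers of mature oligodendrocytes had log2 fold changes above 0, from 0.15 for Opalin to 1.68 for the protease gene Klk6. Klk6 and Apod lay higher in every Npc1-/- sample and none of the 7 was called. Their summed scaled TPM was 26393 to 41274 in WT and 33293 to 72389 in Npc1-/- samples, which overlap. The 5 choroid plexus markers had log2 fold changes of −0.47 to −0.26 with summed levels of 3039 to 5524 and 2471 to 5088, and were above 0 in every sample. The 5 neuron markers had log2 fold changes of 0.06 to 0.53, none called, and their summed level did not overlap, at 76.2 to 110.2 in WT and 112.3 to 143 in Npc1-/- samples. The part of these cell types in the Trf difference was not tested. In bulk RNA, a change in the number of cells of a type cannot be told apart from a change in RNA per cell.

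Tfrc (chr16:32608920-32632794, plus strand), the receptor that brings transferrin in and bears 4 of the hairpins above, stood at 34.7, 26.7 and 39.6 scaled TPM in the WT samples and at 17.5, 27.3 and 25.9 in the Npc1-/- samples. In Npc1-/- mice 2 samples lay below all WT samples and replicate 2 lay just above the lowest WT sample, so the genotypes overlapped. The means were 33.6 ± 6.52 and 23.6 ± 5.28, or 0.700-fold, with a log2 fold change of −0.51 (SE 0.21, 95% interval −0.99 to −0.03). The adjusted p was 0.201 by limma and the exact permutation p 0.2. Without Npc1-/- replicate 1, the lowest sample, the log2 fold change was −0.31, and without replicate 3 it was −0.60. Tfrc is also abundant in brain capillary endothelium, and markers of that cell type moved with genotype. All 5 endothelial markers had log2 fold changes below 0, between −0.997 (Flt1) and −0.54 (Cldn5), 4 of 5 with no overlap and none called, and their summed scaled TPM was 795 to 961 in WT and 419 to 679 in Npc1-/- samples. Their part in the Tfrc values was not tested.

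The ratio of Trf to Tfrc within a sample does not depend on the size factors, and the pair was chosen with the single values known. In WT samples it was 19.0, 27.0 and 19.2, and in Npc1-/- samples 50.0, 44.7 and 47.1. The ratios did not overlap, with means of 21.7 ± 4.59 and 47.3 ± 2.62 (SD, n = 3), a difference of 1.14 on the log2 scale. Since the pair was formed with both genes' values in view, this is a description with no test.

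Slc11a2 (chr15:100387898-100425072, minus strand), which encodes the endosomal iron transporter DMT1, stood at 6.59, 5.22 and 5.84 scaled TPM in the WT samples and at 5.73, 5.36 and 5.41 in the Npc1-/- samples. The 3 Npc1-/- values fell inside the WT range. The log2 fold change was −0.09 (SE 0.11, 95% interval −0.36 to 0.19, adjusted p = 0.722 by limma), an interval that includes a difference of either sign. Without Npc1-/- replicate 3 it was −0.08.

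The ferritin chains were both at higher means in Npc1-/- cells, but only the light chain separated the genotypes. Ftl1 (chr7:45457944-45459884, minus strand) stood at 832, 947 and 960.3 scaled TPM in the WT samples and at 1350.2, 1529.8 and 1585 in the Npc1-/- samples. In scaled TPM the lowest Npc1-/- sample was far above the highest WT sample, and the spread within each genotype was small. The gap was narrower in TPM as deposited, with the lowest Npc1-/- sample at 1151 and the highest WT sample at 1078. The means were 913 ± 70.6 and 1488 ± 123 (SD, n = 3), 1.63-fold, with a log2 fold change of 0.70 (SE 0.13, 95% interval 0.39 to 1.02). Ftl1 had the smallest p of the 10 (unadjusted p = 0.00109, adjusted p = 0.0557 by limma), just above the threshold. Its log2 fold change was 0.65 without Npc1-/- replicate 3, 0.24 after quantile normalization and 0.33 in TPM as deposited (adjusted p = 0.130 by limma). Relative to the median of all genes in TPM as deposited it was 0.66. The adjusted p over all alternatives was 0.0134 to 0.211.

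Ftl1 has near-identical copies in the genome, and reads could be split between them. Ftl1-ps1, annotated as protein coding, carried 11.8 to 18.1 TPM, or 1.20% of the Ftl1 mean, and bears the same type of 5′ hairpin. It was called higher in Npc1-/- samples (log2 fold change 0.68, adjusted p = 0.0432 by limma), a gene named here after its values were seen. Because its reads may come from Ftl1, it is not a separate measurement.

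Fth1 (chr19:9980598-9985098, plus strand), the ferritin chain that oxidises iron for storage, stood at 8642, 11741 and 13597 scaled TPM in the WT samples and at 10041, 17486 and 23575 in the Npc1-/- samples. The genotypes overlapped, because Npc1-/- replicate 1 lay below WT replicates 2 and 3. The means were 11327 ± 2503 and 17034 ± 6778 (SD, n = 3), with a log2 fold change of 0.53 (SE 0.40, 95% interval −0.41 to 1.47, adjusted p = 0.496 by limma). The sign did not hold under quantile normalization, where it was −0.03, and leaving out 1 sample moved it both ways, to 0.25 without Npc1-/- replicate 3 and 0.87 without Npc1-/- replicate 1. The mature oligodendrocyte markers given beside Trf, mostly Mobp, summed to 26392.5, 37374.3 and 41273.5 scaled TPM in WT replicates 1 to 3. In Npc1-/- replicates 1 to 3 the sums were 33292.8, 54128.5 and 72388.5. Their part in the Fth1 values was not tested. The 3 samples of each genotype varied more for Fth1 than for Ftl1, with coefficients of variation of 22.1% and 39.8% against 7.73% and 8.24%.

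The ratio of Fth1 to Ftl1 within a sample, also chosen with the values known, was 10.4, 12.4 and 14.2 in WT and 7.44, 11.4 and 14.9 in Npc1-/- samples. The genotypes overlapped, with a difference of −0.18 on the log2 scale, given without a test for the same reason.

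Ncoa4 (chr14:32159865-32179855, plus strand), the cargo receptor that takes ferritin to lysosomes, stood at 45.1, 43.2 and 37.5 scaled TPM in the WT samples and at 45.0, 41.7 and 37.5 in the Npc1-/- samples. The genotypes spanned the same range, and their means, 41.9 ± 3.98 and 41.4 ± 3.78, differed by less than their SD. The log2 fold change was −0.02 (SE 0.11, 95% interval −0.27 to 0.24, adjusted p = 0.946 by limma). Its sign turned in several alternatives, among them without Npc1-/- replicate 3 (0.05).

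Slc40a1 (chr1:45908068-45926523, minus strand), the iron exporter ferroportin, stood at 18.2, 8.93 and 8.18 scaled TPM in the WT samples and at 6.25, 8.14 and 7.16 in the Npc1-/- samples. All Npc1-/- values were below all WT values, but the gap between WT replicate 3 and Npc1-/- replicate 2 was small and WT replicate 1 stood apart. The means were 11.8 ± 5.56 and 7.18 ± 0.944 (SD, n = 3), 0.611-fold, with a log2 fold change of −0.59 (SE 0.28, 95% interval −1.26 to 0.08, adjusted p = 0.279 by limma). Without WT replicate 1 the log2 fold change was −0.24, and without Npc1-/- replicate 3 it was −0.60.

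Ferroportin is abundant in macrophages, microglia and endothelium, whose markers moved in the same direction. All 6 microglial markers were lower in every Npc1-/- sample, with a median log2 fold change of −1.08 and 1 called, Tmem119. All 5 markers of perivascular macrophages were lower in every Npc1-/- sample, with a median of −1.56 and 3 called, Mrc1, Cd163 and F13a1. The summed scaled TPM of the microglial markers was 180 to 281 in WT and 83.1 to 153 in Npc1-/- samples. That of the macrophage markers was 14.2 to 25.0 and 3.55 to 5.27. None of these markers was at 0 in any sample, and WT replicate 1, the sample with the most Slc40a1, had the highest sum for both lists. Their part in the Slc40a1 values was not tested.

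**Figure D2:**
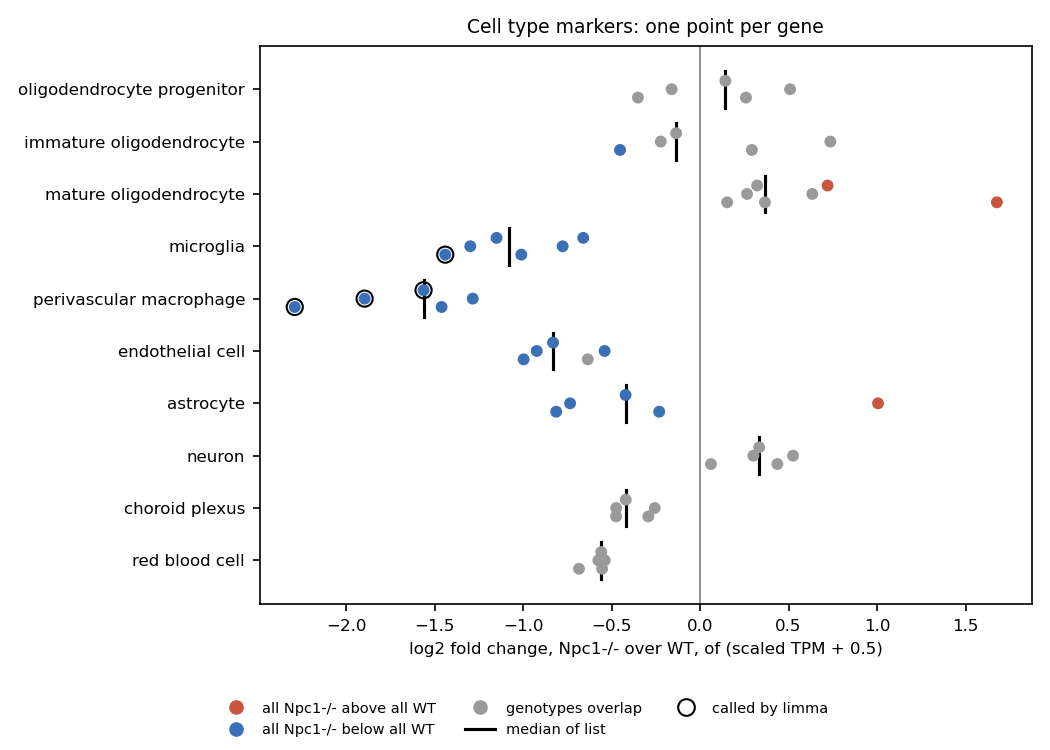
Fold change (log2 of scaled TPM + 0.5, Npc1-/- over WT) of each marker gene of 10 cell types, coloured by whether the samples of the genotypes overlap, with black rings for genes called by limma and a bar at the median of each list. The markers of microglia and perivascular macrophages all lay lower in every Npc1-/- sample, with medians of −1.08 and −1.56, while those of mature oligodendrocytes and of neurons all lay above 0.

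Hmox1 (chr8:75093621-75100589, plus strand), which opens heme and releases its iron, stood at 5.67, 5.31 and 4.03 scaled TPM in the WT samples and at 5.47, 6.77 and 6.08 in the Npc1-/- samples. Npc1-/- replicate 1 lay below WT replicate 1, so the genotypes overlapped. The log2 fold change was 0.27 (SE 0.15, 95% interval −0.08 to 0.62, adjusted p = 0.344 by limma). It was 0.27 without Npc1-/- replicate 3 and 0.14 without WT replicate 3, the lowest WT sample. Its sign turned to −0.07 in TPM as deposited, where the median of all genes tested was itself −0.33. Relative to that median the value was 0.25. Hmox1 rested on the fewest fragments of the 10, an estimated 171 to 305 per sample, for a counting error of up to 7.64%.

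Gpx4 (chr10:80047166-80056439, plus strand), the glutathione peroxidase that detoxifies lipid peroxides, stood at 396, 449 and 565 scaled TPM in the WT samples and at 515, 650 and 785 in the Npc1-/- samples. In scaled TPM replicate 3 was highest and replicate 1 lowest in both genotypes, and Npc1-/- replicate 1 lay inside the WT range. The order differed in TPM as deposited, at 513, 497 and 587 in WT and 568, 555 and 571 in Npc1-/- samples. The means were 470 ± 86.5 and 650 ± 135 (SD, n = 3), 1.38-fold, with a log2 fold change of 0.46 (SE 0.20, 95% interval −5.72e-05 to 0.92, adjusted p = 0.225 by limma). It was 0.31 without Npc1-/- replicate 3, 0.13 after quantile normalization and 0.09 in TPM as deposited. Relative to the median of all genes, that last value was 0.42. The adjusted p by limma over all alternatives was 0.0199 (replicate block) to 0.603 (TPM as deposited). The transcribed pseudogene Gpx4-ps2 carried 43.6 to 56.0 TPM, or 9.53% of the Gpx4 mean, and had a log2 fold change of 0.54 (adjusted p = 0.173 by limma), so reads may be shared between them.

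Slc7a11 (chr3:49892526-50443614, minus strand), the cystine importer of the glutathione pathway, stood at 3.56, 3.22 and 2.39 scaled TPM in the WT samples and at 1.42, 1.71 and 2.16 in the Npc1-/- samples. The genotypes did not overlap, though WT replicate 3 and Npc1-/- replicate 3 were close. The means were 3.05 ± 0.602 and 1.76 ± 0.375 (SD, n = 3), 0.577-fold, with a log2 fold change of −0.65 (SE 0.19, 95% interval −1.10 to −0.21, adjusted p = 0.106 by limma, exact permutation p = 0.1). It was −0.79 without Npc1-/- replicate 3, and the adjusted p over all alternatives was 0.0488 to 0.290. At 418 to 1291 estimated fragments per sample its counting error was at most 4.89%, below the spread between samples of a genotype. The endothelial, microglial and macrophage lists above were lower beside Slc7a11, as were 4 of 5 astrocyte markers in every Npc1-/- sample (no astrocyte marker was called). The fifth, Gfap, was higher. The part of these cell types in the Slc7a11 values was not tested.

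The Slc7a11 promoter is shown because this gene is the textbook target of ATF4, which binds amino acid response elements with the letters TGATGNAA. In the RefSeq window of GRCm38 from 250 bases before to 50 bases after the start, these letters occurred on both strands, facing each other. The stretch from 66 to 40 bases before the start, chr3:50443653-50443679 on the minus strand, carries them in capitals.
Slc7a11 promoter: TGATGCAAacctggagaatTTGCATCA
Of 32851 promoter windows of that length, 1304 (3.97%) held the letters on either strand. Ncoa4 held TGACNNNGC, letters of the antioxidant response element, 44 bases before a start, as did 12.4% of windows. Windows were at hand for 6 of the 10 genes, and Tfrc, Fth1, Ftl1 and Gpx4 had a match to neither set of letters.

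**Figure D3:**
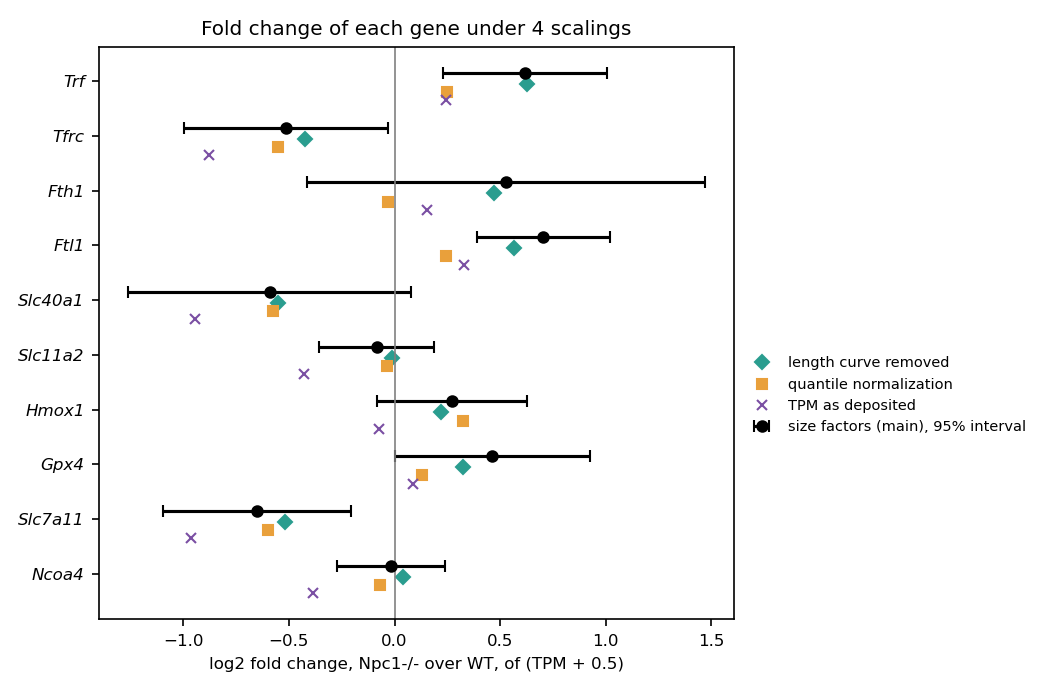
Fold change (log2 of TPM + 0.5, Npc1-/- over WT) of the 10 genes with size factors and the 95% interval from limma, and as points only after removing a curve on transcript length, after quantile normalization and in TPM as deposited. The intervals of Trf, Ftl1, Tfrc and Slc7a11 exclude 0, that of Gpx4 touches it, Fth1 turns sign under quantile normalization, Hmox1 in TPM as deposited and Ncoa4 with the length curve removed.

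Transcript length moved with the fold change across all genes. The median log2 fold change was 0.16 for 3176 genes with a main transcript under 1500 bases and −0.08 for 4734 genes over 4000 bases. Among the 10, the higher Ftl1 and Gpx4 have transcripts of 968 and 959 bases, and the lower Tfrc and Slc7a11 of 4890 and 9223 bases. With a smooth curve on length removed from each sample, Ftl1 was at 0.57 (adjusted p = 0.0551), Gpx4 at 0.32, Tfrc at −0.42, Slc7a11 at −0.52 and Trf at 0.63, all by limma and none called (0.984% of all genes were). In TPM as deposited, Tfrc and Slc7a11 were called at −0.88 and −0.96 (2 of 10, against 6.06% of all genes). There the median of all genes was −0.33 and 870 of 924 called genes were lower, and relative to that median Tfrc was at −0.55 and Slc7a11 at −0.64.

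The other genes of these pathways were taken from 5 lists of 69 genes, of which 61 passed the filter. None of the 61 was called by limma, 16 had an unadjusted p below 0.05 (against 22.2% of all genes tested), and the genotypes did not overlap in 16 (against 27.5%). Of the former 2 were higher and 14 lower, where 10.6% of all genes were higher and 11.6% lower, and of the latter 5 were higher and 11 lower. The endothelial, microglial and macrophage markers given above were lower beside them, and their part was not tested. The median log2 fold change of the 61 was −0.04, beside 0.01 for all genes tested.

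**Figure D4:**
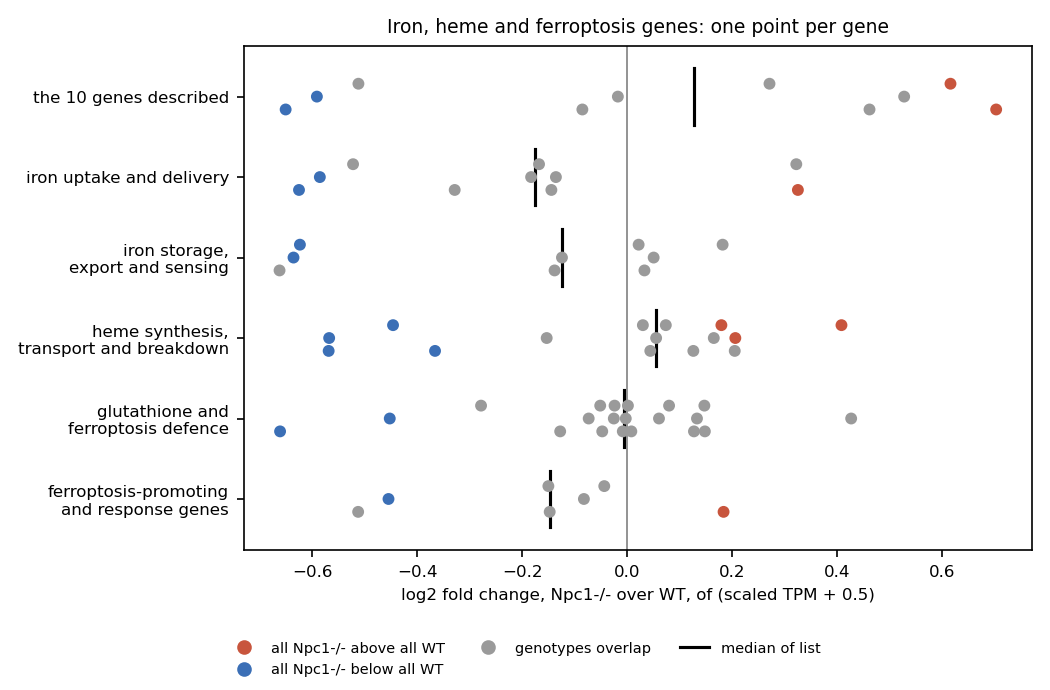
Fold change (log2 of scaled TPM + 0.5, Npc1-/- over WT) of each tested gene in the 10 described and in 5 further lists, coloured by whether the samples of the genotypes overlap, with a bar at the median of each list. The 10 genes reach from −0.65 to 0.70. In the further lists the genotypes did not overlap in 16 of 61 genes, 5 higher and 11 lower, against 27.5% of all genes tested.

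In iron uptake and delivery, 10 of 12 genes were tested and 8 had negative log2 fold changes, with a median of −0.18. The genotypes did not overlap in 3 of the 10, 1 higher and 2 lower (against 27.5% of all genes). The zinc and iron importer gene Slc39a8 was at −0.63 (adjusted p = 0.157) and the ferrireductase genes Steap3 and Steap2 at −0.59 (0.208) and −0.52 (0.184), all adjusted p by limma. The mitochondrial iron importer gene Slc25a28 was at 0.33 (adjusted p = 0.196 by limma) and higher in every Npc1-/- sample. Tfr2 and Timd2 fell below the filter.

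In iron storage, export and sensing, 9 of 12 genes were tested, with a median of −0.12. The ferroxidase genes Cp and Heph were at −0.66 (adjusted p = 0.142) and −0.62 (0.0807), and Hfe, a partner of the transferrin receptor, was at −0.64 (0.0879, limma), none called. Heph and Hfe did not overlap between genotypes and Cp did (2 of the 9 did not, against 27.5% of all genes). The iron chaperone gene Pcbp2 was at 0.18 (adjusted p = 0.475). The genes of the iron regulatory proteins that bind the hairpins, Aco1 and Ireb2, were at −0.14 (0.615) and 0.03 (0.877), and are named because of that role. Ftmt, Hephl1 and Hamp fell below the filter.

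All 15 genes of heme metabolism were tested, with a median of 0.06. Alas1, the first enzyme of heme synthesis in most tissues, was at −0.57 (adjusted p = 0.1), and Alad, the next enzyme, at −0.37 (0.162). The heme transporter gene Flvcr2 was at −0.57 (adjusted p = 0.0784) and the lysosomal heme transporter gene Slc48a1 at 0.41 (0.0789), all by limma and none called. In each of these 4 genes the genotypes did not overlap. Of all 15 the same held for 7, 3 higher and 4 lower (against 27.5% of all genes).

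All 20 genes of glutathione synthesis and ferroptosis defence were tested, and 2 did not overlap between genotypes (against 27.5% of all genes), with a median of −0.01. Slc3a2, which encodes the partner chain of xCT, was lower in every Npc1-/- sample with means of 108 ± 15.9 and 78.1 ± 3.07 scaled TPM (log2 fold change −0.45, SE 0.12, adjusted p = 0.0875 by limma). Gch1, which makes the lipid-protecting cofactor tetrahydrobiopterin, was also lower in every one, at −0.66 (adjusted p = 0.182). Keap1, the NRF2 inhibitor, was at 0.43 (adjusted p = 0.275) and Gclc, the rate-limiting enzyme gene of glutathione synthesis, at 0.15 (0.438, limma), both overlapping.

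The last list, headed ferroptosis-promoting and response genes, held 10 genes, though Cisd1 in it is neither. Of the 10, 7 were tested, with a median of −0.15. The genotypes did not overlap in 2 of the 7, 1 higher (Cisd1) and 1 lower (Lpcat3), against 27.5% of all genes. Lpcat3, which places polyunsaturated fats into phospholipids, had the smallest adjusted p of all 5 lists, with means of 23.0 ± 2.26 and 16.6 ± 0.945 scaled TPM (log2 fold change −0.45, SE 0.10, adjusted p = 0.0661 by limma) and no overlap. Alox5, a lipoxygenase gene of myeloid cells, was at −0.51 (adjusted p = 0.178), Por at −0.15 (0.457) and the mitochondrial iron-sulfur gene Cisd1 at 0.18 (0.268). Alox15, and the ferroptosis response genes Chac1 and Ptgs2, fell below the filter.

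Genes whose values followed each member most closely over the 6 samples were named by Pearson's r of log2(scaled TPM + 0.5), as a description over 6 points that share libraries and size factors. For Trf they were Gm10163, Gm8010 and Mpst (lowest r 0.997), for Ftl1 Chst8, Rtraf and Rps2 (lowest 0.997) and for Fth1 Plin3, Cort and Rtl8b (lowest 0.998). Tfrc was closest to Nkain4, Cxcl14 and B3gnt2 (lowest 0.984) and Slc40a1 to Arl6ip5, Slfn3 and Pim1 (lowest 0.976). Slc11a2 was closest to Gk5, Dhx8 and Slc20a1 (lowest 0.981), Hmox1 to Glmp, Car5b and 1810044D09Rik (lowest 0.967) and Gpx4 to Guk1, Hes3 and U2af1 (lowest 0.998). Slc7a11 was closest to Vstm4, Foxs1 and Wnt5a (lowest 0.992) and Ncoa4 to Gramd1b, Igsf3 and Cpsf3 (lowest 0.997). With 15245 genes and 6 samples, such values carry little weight.

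Over all genes tested, 7780 had log2 fold changes above 0 and 7465 below. Of the 8 genes with a hairpin in the 5′ UTR, 4 had log2 fold changes above 0 and 4 below, with a median of −0.05 and 1 called, Ftl1-ps1, which may share reads with Ftl1 and is no separate gene in that count. The others beside the members were Alas2, the heme synthesis gene of red cells (−0.68, adjusted p = 0.530 by limma), Atrx, Ppp1r1b and Wdfy1. Of the 31 with one in the 3′ UTR, 10 were above 0 and 21 below, with a median of −0.07, and none was called. Tfrc, at −0.51, lay below that median.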

How the data were processed

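O4+ cells from whole brains of WT and Npc1-/- mice at P16 gave 6 poly(A) libraries (3 per genotype) of 151-base read pairs, grouped by the genotype in the labels. The authors deposited TPM and FPKM values for 55492 genes. The submitters' processing notes name cutadapt 2.3, FastQC 0.11.8, STAR 2.7.8a, RSEM 1.3.3 and MultiQC 1.7, while the paper's methods describe bbduk, STAR on GRCm38, featureCounts and DESeq2. Which of these made the deposited TPM and FPKM, and whether strand was used, is not given in the sources used here. No per-sample column was left out.

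TPM was divided by median-of-ratios size factors (from 0.727 to 1.30), 0.5 was added and log2 taken, so fold changes of low genes are understated. The model, with genotype as its only term, was limma 3.58.1 (lmFit, eBayes with trend, Benjamini-Hochberg) under R 4.3.3 for genes averaging 0.5 TPM or more. On simulated data for this comparison (15245 genes), the fit called 155 (77.5%) of 200 genes given a log2 change of 1.5, and 5 unchanged genes. No smaller change was simulated, so this gives no rate for changes of the size seen in the 10 genes (−0.65 to 0.70). Depth came from the spacing of low FPKM values. At the depths found, 81.3% to 82.8% of these were within 0.15 of whole fragments. By chance 30% would be at a depth fixed beforehand, but the depth was chosen for a high share. The largest error was 0.526% in 3 simulated libraries, whose depths lay on the search grid. The error in the real libraries was not measured. Fragments per gene assume the main transcript. Values of genes with several transcripts could not be returned to whole reads, so no count test was run. Positions, UTRs and lengths came from GENCODE M21 (55227 identifiers found), and promoter windows from RefSeq on GRCm38.

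The 10 genes, the lists and the markers were chosen with earlier results of these data known. Named were the 10 genes, every called list gene, the 4 list genes with the smallest p in each list, and the 3 genes most correlated with each of the 10. Alternatives were quantile normalization, TPM as deposited, FPKM, other pseudocounts (0.1 and 1), a filter at 5 TPM or none, limma with robust estimation or without trend, a replicate block and leaving out each sample. Curves on length and GC content (loess, span 0.3) were added after seeing the data.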

Additional observations from a re-analysis of the deposited data

How the results depend on the processing

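Across all genes, 124 were called. The count was 924 in TPM as deposited (54 higher and 870 lower, where the median of all genes shifted to −0.33), 240 after quantile normalization, 21 with no filter, 447 at a mean TPM of at least 5, 42 by limma without trend and 287 with the GC curve removed. Leaving out WT replicates 1, 2 and 3 in turn gave 20, 13 and 8, and Npc1-/- replicates 1, 2 and 3 gave 19, 5 and 477. Among the 10 genes, 2 were called in TPM as deposited, Slc7a11 (−0.96) and Tfrc (−0.88), where 6.06% of all genes were, and 1 at a mean TPM of at least 5, Ftl1, against 4.89%. None was called with any one sample left out (range 0 to 0). Of the 69 further genes, 5 were called in TPM as deposited, 1 at a mean TPM of at least 5, and 0 to 1 with a sample left out. The log2 fold change of Fth1 turned to −0.0310 under quantile normalization and that of Hmox1 to −0.0717 in TPM as deposited. That of Ncoa4 was −0.0981 to 0.0479 with single samples left out, above 0 without WT replicate 1, WT replicate 2 or Npc1-/- replicate 3, and turned to 0.0414 with the length curve and 0.00908 with the GC curve removed. The causes were not tested. Of 179 values of the 10 genes under these alternatives, 166 kept their direction and side of the threshold. Several of the alternatives change only the test or the filter and leave the fold change as it was. That count is therefore no measure of stability. Slc7a11 did not pass the filter of a mean TPM of at least 5.

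The fit with a replicate block called 2011 genes (13.2%), among them 3 of the 10 (Trf, Ftl1 and Gpx4) and 9 of the further genes. Samples of the same number correlated at 0.414, 0.0602 and 0.326 in their deviations from the genotype means. Each sample correlated best with its own number. The labels do not say which samples shared a litter or day, so the numbers were not taken to pair them. The estimated counting error at the lowest depth was below the spread between samples in both genotypes for 9 of the 10 genes. For Slc11a2 it was 4.11% beside a spread of 3.65% in Npc1-/- samples.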
